A study of Mus musculus with 46 samples.

Results

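The first days after withdrawal of PLX3397 were examined in the subventricular zone (SVZ), by comparing tissue at 5 day recovery with tissue at 14 day PLX3397. The samples were chosen by their titles, and they are 10 of the 46 samples of the series: 5 SVZ libraries titled RepopSVZ, from mice fed PLX3397 in chow at 600 ppm for 14 days and then control chow for 5 days, and 5 titled ElimSVZ, from mice killed after the 14 days of PLX3397. A further 5 SVZ libraries, titled ControlSVZ, came from mice given vehicle and served as the reference level. All mice were C57BL/6, and according to the methods male. The labels give no age, and the default age in the study's methods is that of young adult mice. The inhibitor was given to the whole animal and was not restricted to microglia. The labels describe each sample as 1 mouse's tissue only by a title number, so the spread between libraries is taken as the spread between mice.

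PLX3397 inhibits the receptor of colony-stimulating factor 1 (CSF1R) and, with it, the related receptor kinases KIT and FLT3. Microglia, the resident macrophages of the brain, need CSF1R signaling to survive, and when the drug is withdrawn, the niche is filled again by macrophages that divide or enter from elsewhere. The SVZ, in the wall of the lateral ventricle, holds neural stem cells, the neuroblasts they produce, ependymal cells that line the ventricle, and oligodendrocyte precursors beside the white matter. In bulk tissue, fewer cells of a type and less RNA per cell cannot be told apart.

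Levels are in FPKM, in which a gene's reads are scaled to its length and to the reads of its library. The reads behind the libraries were estimated from the steps of the values and ranged from 5.51 M to 10.6 M at 14 day PLX3397, from 5.38 M to 9.67 M at 5 day recovery and from 4.57 M to 9.52 M in control. The tissue label was met by its markers: the 13 neuroblast genes summed to 375 to 432 FPKM at 14 day PLX3397 and to 311 to 469 FPKM at 5 day recovery, and all 12 neural stem cell and 9 ependymal genes on the lists were measured. Control replicate 1 held choroid plexus, the tissue that makes cerebrospinal fluid (*Ttr* at 20946 FPKM, against a control median of 32.1 FPKM). Replicates 4 and 5 of the 5 day recovery group stood apart from the other 13 libraries in ribosomal RNA (*Rn45s* at 261 and 231 FPKM, against 738 to 1283 FPKM). In replicate 4, the deviations of genes from their mean over the 15 libraries also followed the GC content of the transcripts (r = -0.48 across genes, which are not independent replicates), and in replicate 5 their length (r = -0.35). The calls lost without these 2 mice (22 of 46) are named with their genes.

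At 5 day recovery, 46 genes differed from 14 day PLX3397 with an adjusted p under 0.05 (limma on log2(FPKM + 1), 2-sided, Benjamini-Hochberg over 14151 genes). Of the genes tested, 0.290% were higher at 5 day recovery (41 genes) and 0.0353% were lower (5 genes). These 46 are called differentially expressed genes (DEGs) here, and the mice of the 2 groups recovery and depleted mice. In the same test 2337 genes had an unadjusted p under 0.05. A log2 fold change below is the difference in log2(FPKM + 1), 5 day recovery minus 14 day PLX3397, on which changes of weakly expressed genes come out too small. Over all genes its median was -0.01, on values that are scaled to the reads of each library. The values of the groups did not overlap for 43 of the 46 DEGs, where 2.11% of all genes tested were higher and 1.42% lower without overlap. To see which DEGs belong to microglia, their level in sorted control microglia (CD11b+CD45int cells of another experiment of the series, n = 3) was divided by their level in control SVZ. The tables were normalized separately, so this ratio was used only to sort genes, with a limit of 20 chosen after its values were seen. Of the 41 genes that rose, 24 had a ratio of at least 33.5 and are called microglia-enriched, 13 had a ratio of at most 7.09, and 4 were not in the sorted-cell table. The plot of all 46 differences shows these groups.

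The firmest of these results were those of the phagocytes. Of the 46 DEGs, 21 kept their call in every one of the 25 alternative settings in which they were tested: 18 of the 24 microglia-enriched genes, the hemoglobin genes *Hbb-bs* and *Hba-a2*, and *Pdgfra*. *Hsph1* also kept it in every fit that left out a mouse, with an adjusted p of at most 0.0440. The other 24 had an adjusted p above 0.05 in 2 to 14 of 15 fits, in each of which another mouse of any group was missing, and it was at most 0.155 there. The 41 rises became 26, 23, 22 and 26 without depleted replicates 1, 2, 3 and 4 and 27 without recovery replicate 5. The 5 decreases became 0, 0, 2, 1 and 9 without depleted replicates 1 to 5, 12, 28, 1 and 2 without recovery replicates 2 to 5, and 2 and 3 without control replicates 3 and 5. Without recovery replicates 4 and 5 together, 24 rises and 1 decrease (0 of the 5) were called, with fewer mice in the fit.

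**Figure D1:**
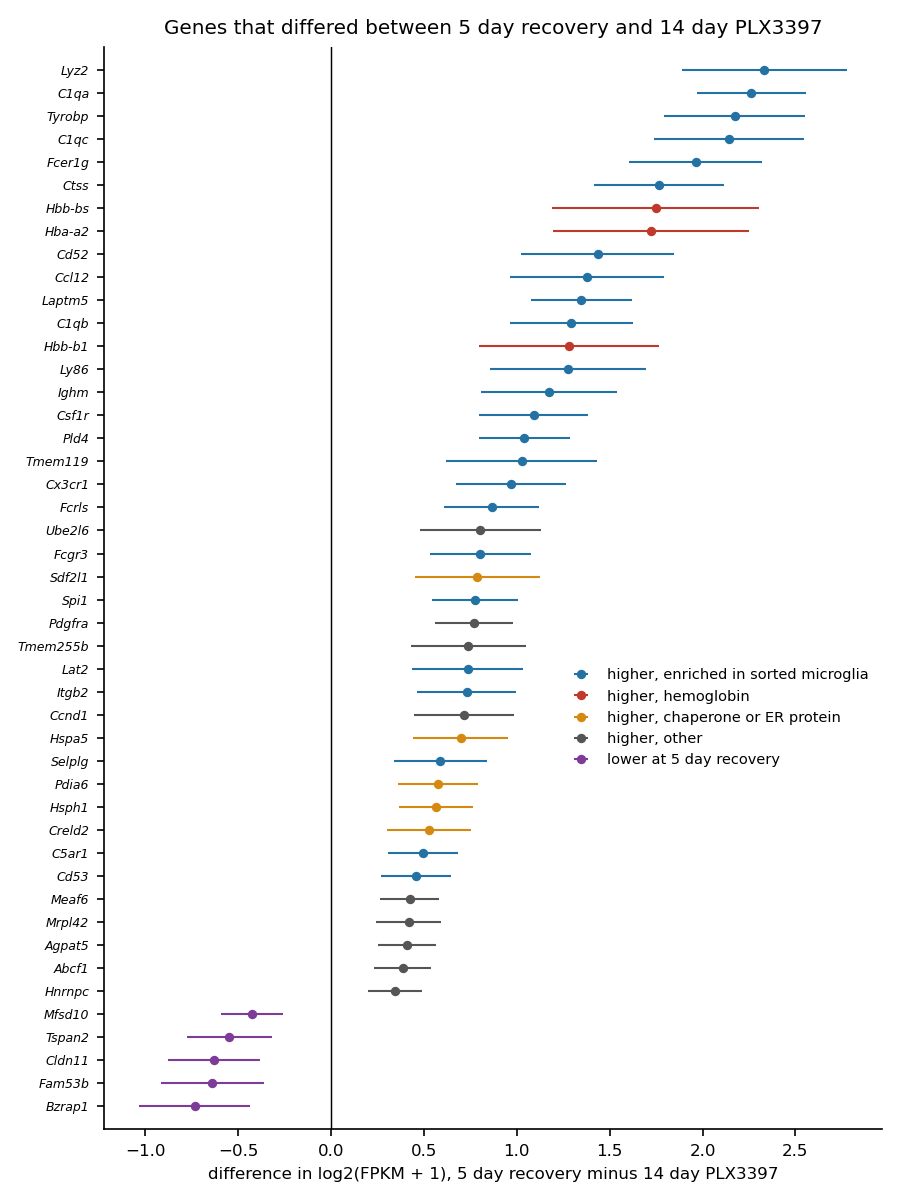
Each point is the log2 fold change of a DEG on the log2(FPKM + 1) scale, 5 day recovery minus 14 day PLX3397 (n = 5 mice each), with its 95% confidence interval, colored by group. The rises reach 2.33 in *Lyz2*, and the 5 decreases lie between -0.42 and -0.73.

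The microglia-enriched genes that rose are described in turn, beginning with the growth factor receptor on which these cells depend and a transcription factor of their lineage. *Csf1r* (Entrez 12978), which encodes the target of PLX3397, was at 0.230, 0.122, 0.1003, 0.0810 and 0.281 FPKM in the 14 day PLX3397 mice, in the order of their replicate numbers. At 5 day recovery it was at 1.77, 2.26, 1.27, 1.47 and 0.818 FPKM. Every recovery mouse was above every depleted mouse (log2 fold change 1.09, SE 0.14, adjusted p = 0.000841), and the control mean was 38.8 ± 5.15 FPKM (SD, n = 5). *Spi1* (Entrez 20375) encodes PU.1, the transcription factor that specifies the myeloid lineage. It was at 0.0835, 0.00, 0.146, 0.157 and 0.00 FPKM at 14 day PLX3397 and at 0.836, 0.911, 1.21, 0.853 and 0.475 FPKM at 5 day recovery. The groups did not overlap here either (log2 fold change 0.78, SE 0.11, adjusted p = 0.00238).

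Complement component C1q, which opsonizes targets and is made in brain mostly by microglia, returned with all 3 of its chains. *C1qa* (Entrez 12259) was at 0.308, 0.174, 0.00, 0.0967 and 0.00 FPKM at 14 day PLX3397, which is 0 to 3 reads per library. At 5 day recovery it was at 4.64, 5.05, 3.08, 5.64 and 3.63 FPKM, or 27 to 59 reads. *C1qc* (Entrez 12262) was listed at 0 in 3 of the 14 day PLX3397 mice and reached 0.633 FPKM in replicate 1, against 2.07 to 5.10 FPKM at 5 day recovery. The log2 fold change was 2.26 for *C1qa* (adjusted p = 2.50e-07), 2.14 for *C1qc* (adjusted p = 1.46e-05) and 1.29 for *C1qb* (adjusted p = 0.000532). With the complement receptor gene *C5ar1* (0.00 to 0.0378 FPKM at 14 day PLX3397, 0.289 to 0.567 FPKM at 5 day recovery, adjusted p = 0.0217), 4 of the 6 tested genes of the list of C1q and phagocyte complement receptors rose, where 0.290% of all genes did, and the median log2 fold change of the list was 0.89.

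The adaptors *Tyrobp* and *Fcer1g* carry the activating signal of many myeloid receptors into the cell. *Tyrobp* (Entrez 22177) was at 0.391, 0.331, 0.683, 0.368 and 0.00 FPKM at 14 day PLX3397 and at 4.90, 5.97, 5.04, 3.27 and 6.46 FPKM at 5 day recovery (adjusted p = 1.16e-05, log2 fold change 2.17). *Fcer1g* (Entrez 14127) was listed at 0 in 2 of the 14 day PLX3397 mice and was at most 0.828 FPKM there, against 3.39, 3.69, 4.71, 5.81 and 3.47 FPKM at 5 day recovery (adjusted p = 1.38e-05, log2 fold change 1.96). Both genes were higher in all 5 recovery mice than in any depleted mouse. The same held for the lysosomal protease gene *Ctss* (log2 fold change 1.77), the lysosomal membrane protein gene *Laptm5* (1.35), *Ly86*, whose product partners a Toll-like receptor homolog (1.28), and *Pld4*, an endolysosomal nuclease gene (1.04). It also held for *Fcgr3* (0.80), 1 of 2 tested IgG receptor genes, the integrin gene *Itgb2* (0.73), the selectin ligand gene *Selplg* (0.59), the adaptor gene *Lat2* (0.74) and the tetraspanin gene *Cd53* (0.46). Of the 19 tested general phagocyte genes, 10 rose and 0 fell, where 0.290% of all genes rose and 0.0353% fell, with a median log2 fold change of 0.73. Without replicates 4 and 5 of the 5 day recovery group, *Lat2* (adjusted p = 0.189), *Itgb2* (0.153), *Selplg* (0.303) and *C5ar1* (0.113) were above the threshold. So was *Cd53* (0.155), whose adjusted p was 0.323 after adjustment for GC content and length. With a mouse left out, their adjusted p reached 0.105 (*Lat2*) and 0.0657 (*Itgb2*) without depleted replicate 2, 0.140 (*Selplg*) without recovery replicate 5, 0.0788 (*C5ar1*) without recovery replicate 4 and 0.129 (*Cd53*) without depleted replicate 2.

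Some of the rising genes came close to control. *Lyz2* (Entrez 17105), which encodes lysozyme of macrophages and granulocytes, was at 0.316, 0.535, 1.10, 0.297 and 2.06 FPKM at 14 day PLX3397 and at 8.79, 7.81, 9.23, 5.28 and 8.87 FPKM at 5 day recovery. Its control mean was 12.2 ± 1.86 FPKM, so that recovery mice were at 65.4% of control. Reads of the similar gene *Lyz1* may be counted under *Lyz2*, or the reverse, so its values are uncertain. *Cd52* (Entrez 23833), the gene of a small surface glycoprotein of leukocytes, was at 0.221, 0.562, 0.579, 0.00 and 0.722 FPKM at 14 day PLX3397 and at 3.32, 3.38, 2.51, 3.49 and 1.51 FPKM at 5 day recovery, or 109% of control. *Ccl12* (Entrez 20293), a chemokine gene, was listed at 0 in all 5 depleted mice, and at 1.39, 2.04, 0.856, 2.31 and 1.66 FPKM (4 to 12 reads) at 5 day recovery, so no fold is given. In each of these genes the recovery mice lay above all depleted mice (adjusted p = 1.46e-05, 0.00167 and 0.00238).

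*Ighm* (Entrez 16019), the immunoglobulin heavy chain gene that marks B cells, behaved like a gene of this set. It was at 2.98, 3.67, 3.91, 3.51 and 3.77 FPKM at 14 day PLX3397, at 9.85, 9.20, 9.54, 6.31 and 12.5 FPKM at 5 day recovery (adjusted p = 0.00323, log2 fold change 1.17) and at 12.9 ± 3.68 FPKM in control. It was also at 433 FPKM in the sorted control microglia. The light chain gene *Igkc*, the other B cell gene that could be tested, overlapped between the groups (0.00 to 5.67 FPKM at 14 day PLX3397, 1.14 to 3.17 FPKM at 5 day recovery). Whether B cells or microglia carried the *Ighm* reads in the tissue was not tested.

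The markers of homeostatic microglia, which the cells express in the undisturbed brain, returned unevenly. Of the 14 genes on this list, 5 rose, where 0.290% of all genes did, 0 fell and 9 did not pass the test, and the median log2 fold change was 0.51. *Cx3cr1* (Entrez 13051), the fractalkine receptor gene, was at 0.179, 0.00, 0.0521, 0.0281 and 0.00 FPKM at 14 day PLX3397 and at 1.25, 1.43, 0.646, 1.69 and 0.510 FPKM at 5 day recovery (adjusted p = 0.00286, log2 fold change 0.97, SE 0.14). *Fcrls*, an Fc receptor-like gene of microglia, was at 0.00 to 0.182 FPKM and at 0.573 to 1.46 FPKM (log2 fold change 0.86, adjusted p = 0.00238). Both separated the groups. *Tmem119* (Entrez 231633), a microglial membrane protein gene, was at 0.160, 0.226, 0.466, 0.201 and 1.22 FPKM at 14 day PLX3397 and at 2.14, 2.56, 1.76, 2.18 and 0.973 FPKM at 5 day recovery. Its groups overlapped in depleted replicate 5 and recovery replicate 5 (log2 fold change 1.03, adjusted p = 0.0268), and its adjusted p was 0.102 without depleted replicate 1.

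*P2ry12* (Entrez 70839), the purinergic receptor gene that marks ramified microglia, was at 0.286, 0.282, 0.706, 0.537 and 0.388 FPKM at 14 day PLX3397. At 5 day recovery it was at 0.238, 0.519, 0.589, 0.663 and 0.271 FPKM. The groups overlapped throughout, with a log2 fold change of 0.01 (95% interval -0.26 to 0.29, adjusted p = 0.966). *Trem2*, a lipid receptor gene, was listed at 0 in 4 of the depleted mice and at 0.211 to 1.45 FPKM at 5 day recovery (adjusted p = 0.140, log2 fold change 0.65). *Siglech* was likewise listed at 0 in 4 depleted mice, and at 0.144 to 0.388 FPKM at 5 day recovery (adjusted p = 0.187, log2 fold change 0.32). *Sall1* (Entrez 58198), the transcription factor gene of microglial identity, kept most of its level in the tissue, with 2.41 ± 0.429 FPKM at 14 day PLX3397, 2.23 ± 0.226 FPKM at 5 day recovery and 3.12 ± 0.294 FPKM in control (n = 5 each). It did not pass between the treated groups (log2 fold change -0.07, adjusted p = 0.756) or against control (adjusted p = 0.446 and 0.117), although both groups lay below all control mice. At 14 day PLX3397, *Csf1r* was at 0.419% and *Cx3cr1* at 0.223% of control. Most of the *Sall1* level thus did not follow these microglial transcripts, and which cells carried it was not tested.

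Promoters of the genes that rose were read from RefSeq's table for GRCm38.p6, the mm10 assembly that the submitters' processing notes name, as 250 bases before and 50 after each start site. Of the 24 microglia-enriched genes, 14 had a promoter in the table. The sequence GAGGAAGT, a core that PU.1 binds, was searched on both strands and lay in 4 of these 14 genes (28.6%), and in 3.20% of all 32851 promoters (3.69% of their 27025 genes). The 4 genes were *C1qc*, *Ctss*, *Cd53* and *Pld4*, and the *C1qc* stretch is shown because its match lies wholly before the start site, where that of the others touches it or lies after it. The match, in capitals, is on the opposite strand of the gene and begins 195 bases before the start in chr4:136893075-136893134 (minus strand).
C1qc: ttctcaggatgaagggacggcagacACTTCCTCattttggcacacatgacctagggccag
A match of these letters describes the sequence and was not tested as a binding site.

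To place the return of single genes beside one another, the share regained was computed for each recovery mouse as its rise above the 14 day PLX3397 mean, in percent of the loss from the control mean to the 14 day PLX3397 mean. It was computed for all 147 microglia-enriched genes that had a control mean of at least 1 FPKM and were at or under 50% of control at 14 day PLX3397, of 252 with that enrichment and level. Since 14 day PLX3397 levels entered this choice, the shares are a description. In percent of control, the median over genes was 14.6% at 14 day PLX3397 and 26.0% at 5 day recovery, and the median share regained was 7.52%. The median over the 147 genes was 7.03, 7.48, 5.06, 8.11 and 6.05% in recovery mice 1 to 5. Single genes varied more between the mice, with 49.7 to 140% for *Cd52*, 1.97 to 8.01% for *Tmem119* and 1.69 to 5.41% for *Csf1r*. Of the 147 genes, 123 had a higher mean at 5 day recovery, where 48.8% of all genes tested had a log2 fold change above 0. Of the 147, 24 were DEGs that rose, where 0.290% of all genes did. At 5 day recovery 118 were DEGs below control, where 1.09% of all genes tested were. Nothing is read from these counts, since the genes were chosen for a high control level and a low level at 14 day PLX3397.

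**Figure D2:**
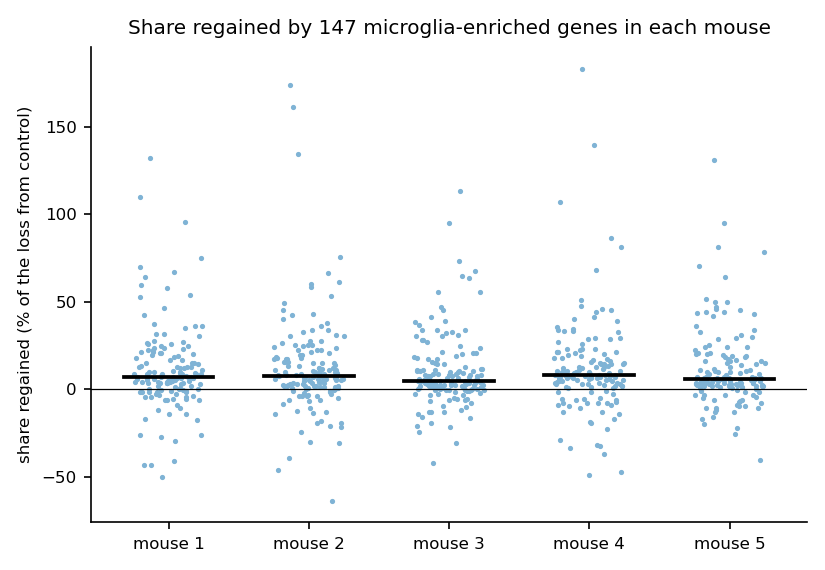
Each dot is the share regained by a microglia-enriched gene (147 genes) in a recovery mouse, in percent of its loss from control, and each bar is the median over genes. The medians of the 5 mice lie between 5.06 and 8.11%, with a tail of genes near or above 100% in every mouse.

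Among the DEGs the shares spanned a wide range around this median. *Ccl12* had regained 131 ± 45.0% (SD over 5 mice), *Cd52* 110 ± 38.2%, *Ighm* 63.1 ± 23.5%, *Lyz2* 62.8 ± 14.1%, *Lat2* 48.6 ± 19.2% and *C5ar1* 36.7 ± 11.3%. The shares of *Ighm*, *Lyz2* and *Lat2* lie within each other's spread. Control means were low for *Ccl12* (1.26 FPKM), *Cd52* (2.62), *Lat2* (2.57) and *C5ar1* (1.14), and higher for *Ighm* (12.9) and *Lyz2* (12.2). They were far higher for *C1qa* (80.6), *Ctss* (73.9) and *Csf1r* (38.8). On log2(FPKM + 1) a gene of low control level can be called only if its share is large. The order of shares among the DEGs therefore depends in part on control level and is not read as an order of return. The next DEGs were *Itgb2* (23.97 ± 9.29%) and *Spi1* (13.3 ± 4.42%). In descending order there followed *Ly86* (10.002 ± 4.86%), *Pld4* (9.40 ± 2.28%), *Fcer1g* (8.95 ± 2.41%), *Tyrobp* (7.65 ± 1.96%), *Cd53* (7.46 ± 1.55%), *Selplg* (6.69 ± 2.08%), *Laptm5* (6.28 ± 1.69%) and *Tmem119* (5.58 ± 2.29%). The last were *C1qc* (5.43 ± 1.75%), *C1qa* (5.33 ± 1.30%), *Fcgr3* (4.93 ± 2.42%), *Ctss* (4.59 ± 1.997%), *Cx3cr1* (4.54 ± 2.19%), *Fcrls* (4.48 ± 1.69%), *Csf1r* (3.503 ± 1.39%) and *C1qb* (3.44 ± 1.10%), none of which stands apart from its neighbor by more than their spread. *Trem2* (2.80 ± 2.04%), *Siglech* (2.55 ± 0.958%), *P2ry13* (1.70 ± 1.77%) and *P2ry12* (0.0711 ± 0.834%) ended the homeostatic list with the glucose and fructose transporter gene *Slc2a5*. Only 5 of the 147 genes had regained over 50%, the fifth being *Chst7*, a sulfotransferase gene that was no DEG (87.4%, named after its value was seen), and 53 had regained under 5%. All 24 rising microglia-enriched genes were DEGs below control at 14 day PLX3397, where 1.21% of all genes were, and 19 of them still were at 5 day recovery. These comparisons share mice with the one that chose the genes, so the counts are a description. The 5 that no longer passed against control were *Ccl12*, *Cd52*, *Ighm*, *Lyz2* and *Lat2*.

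**Figure D3:**
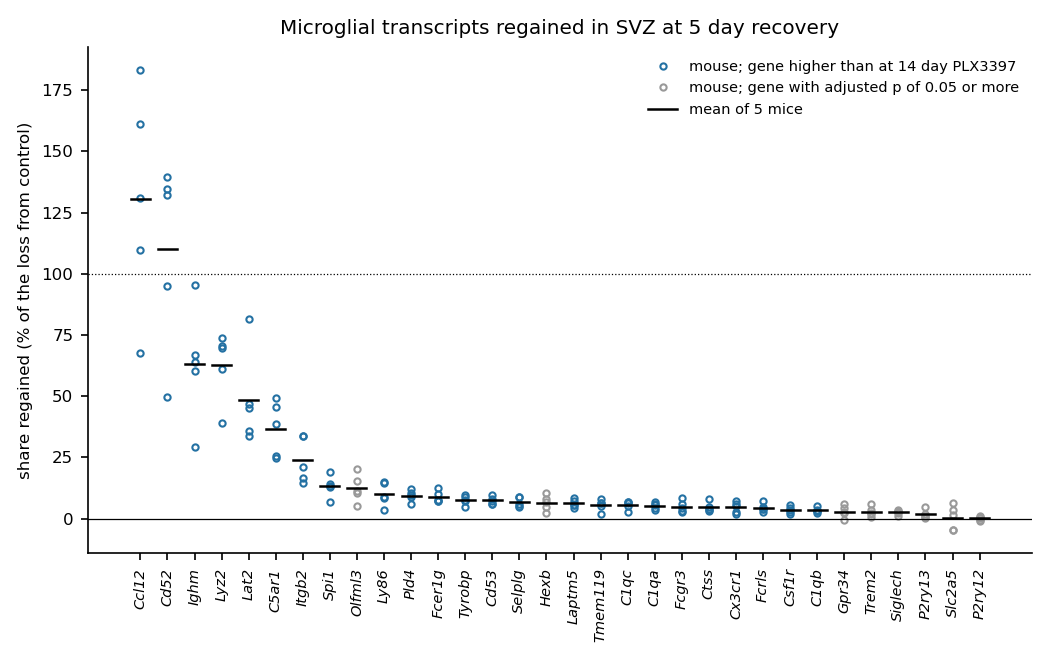
Share regained, in percent of the loss from control, for the 24 rising microglia-enriched genes (blue) and for further genes of the homeostatic list (gray). Circles are the 5 recovery mice and bars their means, and the dotted line at 100% is the control level. *Ccl12* and *Cd52* lie around the control level, and *P2ry12* lies at 0.0711%.

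Genes that mark other states of these cells gave few DEGs. Of 12 tested genes of disease-associated microglia, 0 passed, with a median log2 fold change of -0.01. Few genes of this list had fallen with the microglia: 2 of the 12 were DEGs below control at 14 day PLX3397, where 1.21% of all genes were. The 14 measured genes of the list summed to a median of 4980 FPKM at 14 day PLX3397 and 5168 FPKM in control. In this bulk tissue the list therefore says little about the state of the returning cells. *Lyz2* and *Tyrobp*, which are also described in disease-associated microglia and rose, are counted with the general phagocyte genes here. None of the 6 tested MHC class II genes (0 called) passed, although *Cd74*, the invariant chain gene, was higher in all 5 recovery mice (5.32 to 9.22 FPKM) than in the depleted mice (1.34 to 4.87 FPKM, log2 fold change 1.08, adjusted p = 0.222). Its level in control replicate 1 was 29.1 FPKM. The 14 interferon-stimulated genes had a median log2 fold change of 0.05, and 0 passed. *Ube2l6*, which encodes a conjugating enzyme for the interferon-induced modifier ISG15, did rise, from 3.66 ± 0.706 to 7.27 ± 2.22 FPKM (adjusted p = 0.0312, but 0.155 without recovery replicates 4 and 5 and 0.105 without depleted replicate 2). The ligands of CSF1R did not pass: *Csf1* was at 5.25 ± 0.956 and 3.82 ± 0.6095 FPKM (adjusted p = 0.253) and *Il34* at 36.6 ± 5.77 and 36.6 ± 5.46 FPKM (adjusted p = 0.998).

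Of 22 tested genes of cell division, only *Ccnd1* rose, where 0.290% of all genes did, and *Mki67*, the proliferation marker gene, was under the expression limit in all groups (0.243 to 0.585 FPKM at 14 day PLX3397, 0.226 to 0.478 FPKM at 5 day recovery). The median of the 22 was 0.01. *Ccnd1* (Entrez 12443), the gene of cyclin D1, which drives entry into the cell cycle, was at 6.01, 6.46, 7.09, 10.4 and 9.37 FPKM at 14 day PLX3397 and at 13.8, 12.4, 14.5, 11.8 and 14.3 FPKM at 5 day recovery. The groups did not overlap (log2 fold change 0.72, adjusted p = 0.0185, but 0.0952 without recovery replicates 4 and 5). Its adjusted p was also above 0.05 without depleted replicate 1 (0.0658), 2 (0.0738) or 3 (0.0633) and without recovery replicate 5 (0.0584). In control, *Ccnd1* was at 12.3 ± 1.28 FPKM, from which depleted mice (adjusted p = 0.0183) but not recovery mice (adjusted p = 0.673) differed.

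*Pdgfra* (Entrez 18595), the gene of the platelet-derived growth factor receptor that marks oligodendrocyte precursors, was the most stable rise outside the myeloid genes. It was at 1.65, 1.99, 1.67, 2.44 and 2.77 FPKM at 14 day PLX3397 and at 4.44, 4.29, 4.17, 4.11 and 4.19 FPKM at 5 day recovery. The recovery mice lay within a narrow band, far above the depleted mice (log2 fold change 0.77, SE 0.10, adjusted p = 0.000970), and the result kept its call in each alternative run, with an adjusted p of at most 0.0123. Control was at 5.20 ± 0.317 FPKM, against which 14 day PLX3397 was lower (log2 fold change -1.01, adjusted p = 3.90e-06) and 5 day recovery did not pass (-0.24, adjusted p = 0.247). *Pdgfra* was at 0.0300 FPKM in sorted microglia. The other 13 genes of the precursor list did not pass, and the median of the list was 0.00 (7 above 0 and 7 below). *Gpr17*, of precursors about to mature, was at 1.99 to 3.89 FPKM in depleted mice and at 2.08, 2.57, 2.78, 0.537 and 0.561 FPKM in recovery mice, low in the 2 replicates that stand apart (adjusted p = 0.239).

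Of 17 genes of mature myelin, 2 fell, *Cldn11* and *Tspan2*, where 0.0353% of all genes did, and both lost their call without recovery replicates 4 and 5. *Cldn11* (Entrez 18417), the claudin gene of the tight junctions of myelin, was at 304, 319, 272, 422 and 266 FPKM at 14 day PLX3397 and at 201, 238, 188, 170 and 215 FPKM at 5 day recovery (adjusted p = 0.0265, log2 fold change -0.63, SE 0.12). *Tspan2* (Entrez 70747), a tetraspanin gene of myelinating cells, was at 27.9, 29.9, 25.8, 39.6 and 25.9 FPKM at 14 day PLX3397 and at 19.6, 20.4, 17.2, 21.1 and 21.2 FPKM at 5 day recovery (adjusted p = 0.0400, log2 fold change -0.55). The groups did not overlap in either gene, and depleted replicate 4 was highest in both. The other 15 myelin genes did not pass. Of the 17 differences 15 were below 0, and their median was -0.28. *Mbp*, the myelin basic protein gene, overlapped between the groups (987 to 1852 FPKM and 761 to 1201 FPKM, log2 fold change -0.43, adjusted p = 0.229), as did *Mag* (-0.60, adjusted p = 0.160) and *Cnp* (-0.51, adjusted p = 0.140). *Cldn11* was at 240 ± 13.7 FPKM in control and *Tspan2* at 21.3 ± 2.02 FPKM, and neither passed against control in either group (adjusted p = 0.262 and 0.301 for *Cldn11*, 0.0527 and 0.679 for *Tspan2*, at 14 day PLX3397 and 5 day recovery). With GC content and length adjusted, both kept their call (adjusted p = 0.0137 for each), whereas without recovery replicates 4 and 5 the adjusted p was 0.155 (*Cldn11*) and 0.113 (*Tspan2*). Without depleted replicate 2 it was 0.0891 and 0.117, and it exceeded 0.05 in 4 (*Cldn11*) and 14 (*Tspan2*) of the 15 fits with a mouse left out.

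**Figure D4:**
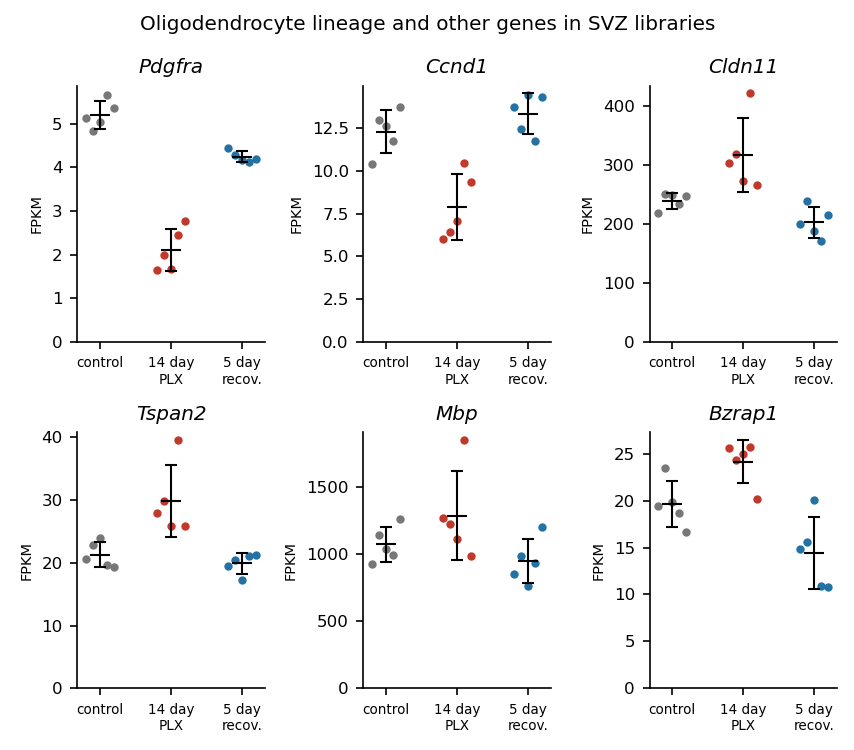
FPKM per mouse (dots) with mean and SD (bars) by group, from left to right control, 14 day PLX3397, 5 day recovery, for genes of oligodendrocyte precursors, the cell cycle, myelin and synapses. *Pdgfra* lies at 4.11 to 4.44 FPKM in recovery mice and 1.65 to 2.77 FPKM in depleted mice, and *Cldn11* at 170 to 238 and 266 to 422 FPKM.

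The other 3 decreases were in genes of the synapse, of transport and *Fam53b*. *Bzrap1* (Entrez 207777), which encodes a binding protein of presynaptic RIM proteins, was at 25.6, 24.4, 24.9, 25.8 and 20.2 FPKM at 14 day PLX3397 and at 14.8, 15.6, 20.1, 10.9 and 10.8 FPKM at 5 day recovery. *Fam53b* (Entrez 77938) was at 9.97, 9.50, 10.3, 12.5 and 9.57 FPKM and at 6.76, 6.98, 8.76, 5.05 and 4.56 FPKM. In both genes replicates 4 and 5 were the lowest of the recovery mice. Their log2 fold changes of -0.73 (adjusted p = 0.0327) and -0.64 (adjusted p = 0.0499) were -0.49 (0.0622) and -0.47 (0.0522) with GC content and length adjusted, and the GC content of their transcripts was 58.6 and 56.2%, against a median of 49.95% over the tested genes. *Mfsd10* (Entrez 68294), a transporter gene, was at 17.9 ± 1.10 and 13.1 ± 1.38 FPKM (log2 fold change -0.42, adjusted p = 0.0268). Its GC content was higher still (59.3%), and it kept its call with this adjustment (adjusted p = 0.0154), but not without depleted replicate 1 (adjusted p = 0.102). Across all genes, the median log2 fold change fell from 0.05 in the fifth of genes with the lowest GC content to -0.13 in the fifth with the highest. None of the 5 decreases was called without recovery replicates 4 and 5 (0 of 5; adjusted p of 0.196 for *Bzrap1*, 0.234 for *Fam53b* and 0.0902 for *Mfsd10*), and 0 of the 5 passed against control at either time.

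Of 22 tested genes of protein folding in the endoplasmic reticulum (ER) and its stress response, 4 rose at 5 day recovery, where 0.290% of all genes did, and none of the 4 passed without recovery replicates 4 and 5. When unfolded proteins accumulate in the ER, the unfolded protein response raises the transcription of its chaperones through the factors ATF6 and XBP1, which act with NF-Y at a promoter sequence called the ER stress response element. The genes that rose were *Hspa5*, which encodes the chaperone BiP, the disulfide isomerase gene *Pdia6*, and *Sdf2l1* and *Creld2*, whose products are induced by ER stress. Of the 22 genes, 19 had a difference above 0 and 15 an unadjusted p under 0.05, and their median log2 fold change was 0.34, against -0.01 over all genes. The element was searched as CCAAT, 9 bases of any kind, and CCACG, on both strands. It lay in 0.119% of all 32851 promoters (0.137% of their genes), in 7 of 19 genes of the list with a promoter in the table (36.8%), and in *Hspa5*, *Pdia6* and *Creld2* among the 4 that rose. The stretches from 150 to 31 bases before the start site are shown in the direction of the gene, with both ends of the element in capitals (in *Creld2* it lies on the opposite strand). They are chr2:34771940-34772059 (plus strand), chr12:17266439-17266558 (plus strand), chr15:88819496-88819615 (plus strand) and chr16:17132414-17132533 (minus strand) of GRCm38.p6.
Hspa5: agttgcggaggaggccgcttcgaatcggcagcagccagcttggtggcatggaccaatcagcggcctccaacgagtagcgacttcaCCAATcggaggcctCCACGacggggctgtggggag
Pdia6: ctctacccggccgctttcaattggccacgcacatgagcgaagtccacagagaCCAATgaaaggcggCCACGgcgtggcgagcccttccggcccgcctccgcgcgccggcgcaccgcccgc
Creld2: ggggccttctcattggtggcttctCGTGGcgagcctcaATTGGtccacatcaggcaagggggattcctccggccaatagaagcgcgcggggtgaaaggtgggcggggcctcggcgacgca
Sdf2l1: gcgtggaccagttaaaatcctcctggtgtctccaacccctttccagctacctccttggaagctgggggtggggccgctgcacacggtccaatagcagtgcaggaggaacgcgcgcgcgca
The element begins 65 bases before the start in *Hspa5*, 98 in *Pdia6* and 126 in *Creld2*, and these letters are not in the *Sdf2l1* window.

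*Hspa5* (Entrez 14828) was at 191, 154, 156, 152 and 140 FPKM at 14 day PLX3397 and at 195, 239, 265, 341 and 264 FPKM at 5 day recovery (adjusted p = 0.0171, log2 fold change 0.70, SE 0.12). *Pdia6* (Entrez 71853) was at 83.0, 70.4, 70.0, 71.3 and 71.6 FPKM and at 89.0, 104, 109, 136 and 115 FPKM (log2 fold change 0.58, adjusted p = 0.0185). The groups did not overlap in these genes. *Sdf2l1* (Entrez 64136) was at 29.9, 28.0, 30.5, 26.8 and 27.4 FPKM and at 29.9, 52.7, 59.3, 59.0 and 55.6 FPKM (log2 fold change 0.79, adjusted p = 0.0459), and *Creld2* (Entrez 76737) at 43.5, 35.9, 36.8, 32.1 and 37.0 FPKM and at 41.5, 55.0, 64.0, 50.02 and 60.2 FPKM (log2 fold change 0.53, adjusted p = 0.0499). In all 4 genes, recovery replicate 1 was the lowest of its group, and in *Sdf2l1* and *Creld2* it lay among the depleted mice. Compared to control, 0 of the 22 genes passed at either time. *Hspa5* was at 203 ± 14.5 FPKM there, between both groups, with log2 fold changes of -0.36 at 14 day PLX3397 (adjusted p = 0.397) and 0.34 at 5 day recovery (adjusted p = 0.200).

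Further carriers of the element did not pass: *Hsp90b1*, the ER member of the HSP90 family, was at 95.6 to 117 FPKM at 14 day PLX3397 and at 124 to 162 FPKM at 5 day recovery (adjusted p = 0.0890), and *Calr* (adjusted p = 0.401), *Canx* (0.251) and *Dnajc3* (0.523) overlapped between the groups. *Xbp1* had an adjusted p of 0.0883, and the genes of the PERK branch, *Atf4* (log2 fold change -0.15) and *Ddit3* (0.33), had adjusted p values of 0.651 and 0.246. Of 14 tested cytosolic chaperone genes, 1 rose, where 0.290% of all genes did. *Hsph1* (Entrez 15505), the gene of the HSP110 exchange factor, was at 101, 94.0, 94.1, 85.9 and 94.0 FPKM and at 116, 138, 145, 156 and 144 FPKM (log2 fold change 0.57, adjusted p = 0.0107). The median of the list was 0.33 and 13 of the 14 differences were above 0, against -0.01 and 48.8% over all genes. *Hspa8*, the constitutive HSP70 gene, was at 168 to 195 and 217 to 304 FPKM (adjusted p = 0.0661). Without recovery replicates 4 and 5, none of these 5 chaperone and ER genes passed, with adjusted p values of 0.0929 (*Hspa5*), 0.117 (*Pdia6*), 0.313 (*Sdf2l1*), 0.226 (*Creld2*) and 0.111 (*Hsph1*), and their log2 fold changes were 0.55, 0.45, 0.65, 0.50 and 0.49. Without depleted replicate 2, the adjusted p was 0.0652 for *Hspa5* and 0.0737 for *Pdia6*, and without recovery replicate 5 it was 0.148 for *Sdf2l1* and 0.155 for *Creld2*. It exceeded 0.05 in 3, 4, 12 and 13 of the 15 fits with a mouse left out for these 4 genes in turn. With GC content and length adjusted, *Hspa5* (0.0101), *Pdia6* (0.0137) and *Hsph1* (0.00870) passed and *Sdf2l1* (0.0545) and *Creld2* (0.0613) did not.

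**Figure D5:**
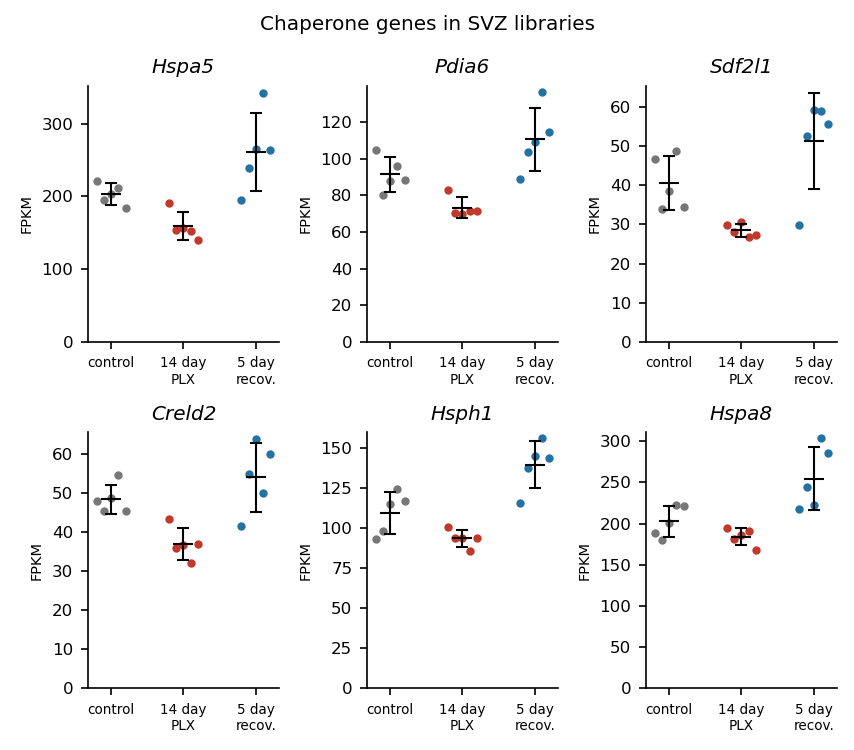
FPKM per mouse (dots) with mean and SD (bars) by group, from left to right control, 14 day PLX3397, 5 day recovery, for ER proteins (*Hspa5*, *Pdia6*, *Sdf2l1*, *Creld2*) and cytosolic chaperones (*Hsph1*, *Hspa8*). Control lies between both treated groups, and recovery replicate 1 is the lowest of its group in each panel.

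Hemoglobin genes, which mark red blood cells and their precursors, were the third group that rose. *Hbb-bs* (Entrez 100503605) was at 3.48, 5.02, 4.71, 6.39 and 2.84 FPKM at 14 day PLX3397 and at 22.97, 9.50, 22.6, 13.3 and 21.02 FPKM at 5 day recovery (adjusted p = 0.00388, log2 fold change 1.75). *Hba-a2* (Entrez 110257) was at 12.8, 12.7, 12.3, 17.3 and 20.96 FPKM and at 50.2, 30.2, 63.0, 41.1 and 91.4 FPKM (log2 fold change 1.72, adjusted p = 0.00286). All 5 recovery mice exceeded the depleted mice in both genes and in *Hbb-b1* (log2 fold change 1.28, adjusted p = 0.0196, and 0.0731 without depleted replicate 1). These genes are near-identical copies within the alpha and beta clusters, so their reads can be split between them. *Alas2*, which starts heme synthesis in red cells, was at 1.91 to 4.33 and 4.29 to 10.4 FPKM (adjusted p = 0.0890). Against control, the 3 hemoglobin DEGs were higher at 5 day recovery, where 0.184% of all genes were, and they were the only ones of the 17 other rises to be so.

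Blood markers are therefore given beside the myeloid genes. The 4 measured erythrocyte genes summed to 46.3, 47.0, 41.8, 57.9 and 57.7 FPKM at 14 day PLX3397 and to 144, 91.3, 233, 103 and 336 FPKM at 5 day recovery. The neutrophil genes *S100a8*, *S100a9* and *Csf3r*, the 3 of 9 that were measured, summed to 0.0275 to 4.24 FPKM and to 1.71, 10.3, 15.4, 2.56 and 9.41 FPKM, and 0 of them passed. *S100a8* was at 0.948, 6.503, 9.37, 2.11 and 6.14 FPKM at 5 day recovery (adjusted p = 0.139), high in replicates 2, 3 and 5. Of 10 monocyte genes, 4 could be tested and 0 passed, with a median log2 fold change of -0.27 and 3 of the 4 below 0. The 5 measured ones summed to 17.4 to 20.2 FPKM at 14 day PLX3397 and to 10.2 to 16.96 FPKM at 5 day recovery, without overlap and lower at recovery. At an unadjusted p under 0.05 were *S100a4* (adjusted p = 0.187, lower without overlap), *Gda* (adjusted p = 0.200, lower) and *Napsa* (adjusted p = 0.247, higher). Of 3 tested genes of border-associated macrophages, 0 passed, with 2 above 0 and 1 below and a median of 0.07: *Cbr2* (log2 fold change 0.32, adjusted p = 0.465), *Pf4* (0.07, adjusted p = 0.923) and *Cd163* (-0.07, adjusted p = 0.834). The 6 measured genes of that list summed to 1.30 to 2.77 FPKM at 14 day PLX3397 and to 1.62 to 3.25 FPKM at 5 day recovery, with overlap, and 0 of 3 T and NK cell genes passed. The part of blood cells in the rise of *Lyz2*, *Ighm*, *Cd52* and the other microglia-enriched genes was not tested.

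The remaining 6 rises were spread over functions, and the groups did not overlap in any of them. *Tmem255b* was at 1.18, 1.85, 1.03, 1.54 and 1.63 FPKM at 14 day PLX3397 and at 3.04, 3.77, 2.25, 2.96 and 3.42 FPKM at 5 day recovery (adjusted p = 0.0400, 0.129 without recovery replicate 5, and 0.234 without replicates 4 and 5), with 5.14 ± 1.27 FPKM in control. With *Pdgfra* and *Ccnd1* it was 1 of the 3 rises outside the microglia-enriched genes that were DEGs below control at 14 day PLX3397. The other rises were small in relation to their level: *Meaf6*, of histone acetyltransferase complexes, 42.1 ± 3.48 to 56.8 ± 4.64 FPKM, *Mrpl42*, of the mitochondrial ribosome, 87.3 ± 3.27 to 118 ± 15.2 FPKM, and *Agpat5*, of phospholipid synthesis, 11.1 ± 0.285 to 15.1 ± 1.13 FPKM. *Abcf1*, of translation initiation, went from 17.3 ± 0.881 to 22.9 ± 2.04 FPKM and *Hnrnpc*, of nuclear RNA binding, from 51.2 ± 2.42 to 65.5 ± 5.94 FPKM. Their adjusted p values were 0.0185, 0.0400, 0.0226, 0.0280 and 0.0410, and each was above 0.05 in at least 4 of the 25 alternatives. Without recovery replicates 4 and 5 they were 0.135 (*Mrpl42*), 0.154 (*Agpat5*), 0.155 (*Abcf1*) and 0.135 (*Hnrnpc*), while *Meaf6* kept its call.

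The neural cells of the niche gave no DEG on their lists. Of 13 neuroblast genes (median log2 fold change -0.11), 12 neural stem cell genes (-0.20), 14 neuron genes (0.03), 9 ependymal genes (0.14) and 10 astrocyte genes (0.07), 0 passed, and neither did any of 8 choroid plexus, 10 endothelial and 10 mural and fibroblast genes (0 called). At an unadjusted p under 0.05 these lists held 0, 4, 1, 0, 4, 0, 0 and 1 genes. *Gfap*, the astrocyte filament gene, was at 139, 123, 112, 171 and 132 FPKM at 14 day PLX3397 and at 114, 159, 130, 205 and 232 FPKM at 5 day recovery, against 62.0 ± 10.3 FPKM in control (log2 fold change 0.28, adjusted p = 0.444). The groups overlapped, and both stayed DEGs above control (adjusted p = 0.00128 and 0.000131). *C4b*, a complement gene of reactive astrocytes whose reads can be split with *C4a*, was at 15.3, 12.8, 11.04, 14.4 and 10.2 FPKM at 14 day PLX3397 and at 6.24, 11.6, 8.55, 3.51 and 4.46 FPKM at 5 day recovery (adjusted p = 0.0979, log2 fold change -0.89). *Lcn2*, another gene of this list, was at 13.7 and 8.48 FPKM in recovery replicates 2 and 3 and at most 0.606 FPKM in the other 8 mice of both groups (adjusted p = 0.227). The 11 immediate early genes, which respond within minutes to handling, had a median of -0.01 and 0 passed.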

How the data were processed

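RNA of SVZ tissue was sequenced in 15 libraries (3 groups, n = 5 each). According to the methods, cDNA was made with the Smart-seq2 protocol and reads were aligned with STAR and counted per gene. The labels describe another library protocol, with cDNA, libraries and paired-end sequencing by a company. The submitters' processing notes name STAR, featureCounts, edgeR, limma and the mm10 build. The authors deposited FPKM values for 15695 genes, and the sample titles gave the groups. Symbols turned into dates (25 genes) were restored through Entrez IDs, 85 genes had no symbol, and 0 pairs of libraries were identical. The sorted-cell table of FPKM, also deposited, served only to sort genes. The third table of the series was not used here.

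The 14151 genes that reached 1 FPKM in 3 or more libraries were tested on log2(FPKM + 1) with limma 3.58.1 (R 4.3.3): lmFit on all 15 libraries with group as the only term, eBayes with a trend, 2-sided, and Benjamini-Hochberg adjustment. No count test was used, since the values are FPKM. The steps of low values gave estimates of the reads behind each library and gene. They were used for depth and for the read numbers printed beside weak genes, and not in any test. The depth also rests on the exon lengths of GENCODE vM21. Intervals of differences are 95% intervals of this fit. Alternatives were another pseudocount (0.1), filters, normalization, no trend, fewer libraries, the replicate block and, chosen after seeing the data, the removal of 2 recovery mice and an adjustment of each library for GC content and length of GENCODE vM21 transcripts (93.0% of the tested genes). Replicates share title numbers across groups, but nothing states that the numbers pair the mice. Named genes are all DEGs, a fixed set of 11 genes, and from each of the 32 gene lists up to 4 members with the largest change, besides further list members chosen after their values were seen. The samples and gene lists were chosen with earlier results of these data known. Tables were made with Python 3.11.15 (pandas 2.3.3) and plots with matplotlib 3.10.9.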

Additional observations from a re-analysis of the deposited data

Results flagged for a closer look

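Of 101 groups of 5 values checked (each named gene in both groups, and the median share regained), 8 held a mouse that stood apart from the other 4 by Dixon's criterion, where chance gives about 1 in 20. At 14 day PLX3397, replicate 5 was high for *Tmem119* (1.219 FPKM, the next at 0.466) and for *Fcrls* (0.1823 FPKM) and low for *Bzrap1* (20.16 FPKM). Replicate 1 was high for *Pdia6* (83.04 FPKM, the next at 71.6), replicate 4 for *Fam53b* (12.5 FPKM), and replicate 3 was the only mouse with *C5ar1* above 0 (0.0378 FPKM). At 5 day recovery, replicate 1 was low for *Sdf2l1* (29.85 FPKM, the next at 52.7), and replicate 4 was high for *Lat2* (2.193 FPKM).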

How the results depend on the processing

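The count of rises (41) was 24 without recovery replicates 4 and 5 together, and 22 to 58 with a mouse left out. With only the 10 libraries compared it was 28, of which 25 were among the 41. The rises lost there were *Hbb-b1*, *Tmem119*, *Ube2l6*, *Sdf2l1*, *Lat2*, *Ccnd1*, *Hspa5*, *Pdia6*, *Creld2*, *C5ar1*, *Cd53*, *Meaf6*, *Mrpl42*, *Agpat5*, *Abcf1* and *Hnrnpc*, with an adjusted p of up to 0.138. The count of decreases (5) was 1 with only the 10 libraries compared (0 of the 5), 3 with the replicate block (1 of the 5), 1 without recovery replicates 4 and 5 (0 of the 5), and 0 to 28 with a mouse left out. With the replicate block, 29 rises were called, 28 of them among the 41. Of 15 pairs of same-numbered mice from different groups, 5 deviated together with r above 0.1 (range -0.15 to 0.49 across genes) and 3 had their own number as best partner, so the numbers were not taken as pairs. The number of rising microglia-enriched genes below control at 5 day recovery (19) was 18 to 20 in all alternatives that hold control mice. Of single genes, *P2ry12* turned below 0 with quantile normalization (-0.003036), with GC content and length adjusted (-0.1581), and without depleted replicate 1 or 2 or recovery replicate 2, 3 or 4 (-0.03558 to 0.0784 over all mice left out in turn). *Gfap* turned below 0 without recovery replicates 4 and 5 (-0.008632), and *Sall1* above 0 with GC content and length adjusted (0.03422). None of these was called, and 0 of the 46 DEGs changed direction. The replicate block took 17 of the 46 DEGs above an adjusted p of 0.05, up to 0.110: *Hspa5*, *Pdia6*, *Sdf2l1*, *Creld2*, *Tmem119*, *C5ar1*, *Cd53*, *Selplg*, *Tmem255b*, *Mrpl42*, *Agpat5*, *Abcf1*, *Hnrnpc*, *Mfsd10*, *Tspan2*, *Cldn11* and *Fam53b*. The adjustment for GC content and length and the joint removal of recovery replicates 4 and 5 were chosen after seeing the data. At these depths, genes near 0 at 14 day PLX3397 rest on a few reads, and differences among them below this level were not detectable.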

Other observations

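Further lists held few genes that rose, where 0.290% of all genes did. Of 9 tested myeloid transcription factor genes, 1 rose (*Spi1*) and the median log2 fold change was 0.07. *Irf5* was at 0.118 to 0.607 FPKM at 14 day PLX3397 and at 0.336 to 1.27 FPKM at 5 day recovery (adjusted p = 0.198), *Irf8* at 0.133 to 0.577 and 0.300 to 1.13 FPKM (adjusted p = 0.382). Of 7 tested chemokine and chemokine receptor genes, 2 rose (*Ccl12* and *Cx3cr1*), and *Cxcl12* was at 3.40 to 4.99 and 1.65 to 4.94 FPKM (adjusted p = 0.314). Of the CSF family and related growth factors, 9 genes were tested and 1 rose (*Csf1r*). *Kitl*, the ligand of KIT, was at 6.55 to 7.86 and 7.21 to 10.3 FPKM (adjusted p = 0.387), and *Flt3l*, that of FLT3, at 2.02 to 2.69 and 0.707 to 2.35 FPKM (adjusted p = 0.369).

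None of 9 MHC class I genes passed (0 called, 1 with an unadjusted p under 0.05), and their median was -0.01. The same held for 12 tested genes of reactive astrocytes (0 called, 4 with an unadjusted p under 0.05), with a median of 0.09. *Hspb1*, a small heat shock protein gene of this list, was at 6.04, 4.28, 5.06, 5.45 and 3.62 FPKM at 14 day PLX3397 and at 5.76, 13.04, 14.5, 6.98 and 8.56 FPKM at 5 day recovery (adjusted p = 0.0890). It was highest in replicates 2 and 3, the mice with the highest *Lcn2* and *S100a8*. Among vascular genes, *Rgs5*, of pericytes, was at 34.9 and 23.5 FPKM in recovery replicates 4 and 5 and at 13.5 to 16.3 FPKM in the other 8 mice (adjusted p = 0.258).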
